A study of Homo sapiens with 4 samples.

Results

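The 44 genes described here act in DNA replication and in S phase. They were listed by name and role, and each was measured by at least 1 probe set kept among the 9193 genes of the arrays. By role they fall into 5 genes of nucleotide supply, 14 of the replicative helicase and the origin, 15 of the polymerases and the sliding clamp, 3 of chromatin assembly, 4 of repair and 3 of entry into S phase. The arrays came from LAPC4, an established human prostate cancer cell line that responds to androgens. Total RNA was hybridized to 4 Affymetrix U133 arrays, 1 for each of 4 conditions, after 72 hours of treatment. The medium held either 10% fetal calf serum (FCS) supplemented with 100 pM methyltrienolone, a synthetic androgen, or 10% charcoal stripped serum (CSS), which is depleted of androgens. Cells carried GFP (called control here) or β-TrCP shRNA, so that the arrays were control in FCS, control in CSS (androgen ablation), shRNA in FCS, and shRNA in CSS (both treatments). β-TrCP is the part of an SCF ubiquitin ligase that binds its substrates, and is encoded by the genes BTRC and FBXW11. The study's methods describe an inducible shRNA vector, and the sources differ on whether the control was a GFP vector or the same vector without doxycycline. Effects of doxycycline or vector therefore cannot be told apart from those of the knockdown. The experiment asked which transcripts differ with androgen ablation, with β-TrCP inhibition and with both.

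Signals are given on the log2 scale after quantile normalization, and 4.32 was the floor, which stands for a linear signal of 20. A difference is the log2 signal of one array minus that of another for the same probe set, and a gene at the floor on 1 of the 2 arrays has only a bound. Each condition has 1 array, so no difference between a pair of conditions was checked by replicates or given a p-value, and the number of arrays limits the precision. The local spread given beside some genes is a robust SD of the differences among 1000 probe sets with about the same mean signal. Over the 44 genes it was 0.17 to 0.33 for CSS against FCS in control cells and 0.26 to 0.97 in shRNA cells. The array of shRNA in CSS stood apart. Its deposited values had an interquartile range of 2.07, compared with 2.69 to 2.74 on the other arrays, and its correlation with them across probe sets was 0.946 to 0.947. It is 1 of the 2 arrays in every difference below for CSS in shRNA cells, for the shRNA in CSS and for both treatments. For MCM5, POLA1, UNG and CCNE2, at the floor on it, these differences are bounds. It is in no difference for CSS in control cells or for the shRNA in FCS. All 4 arrays shared in the normalization, the filter and the choice of probe set, however.

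FBXW11, a target of the shRNA, had log2 signals of 8.02 in control cells in FCS and 8.19 in CSS, and of 5.02 and 4.68 with the shRNA. BTRC was at the floor on both shRNA arrays and at 4.50 and 4.64 on the control arrays. Of 10 markers of prostate epithelium 8 were measured, and these were above the floor on all 4 arrays. KLK3, which encodes prostate specific antigen and is induced by androgens, was at 9.00 in control cells in FCS and 9.74 in CSS, so that it was not lower on the array labelled as androgen ablated. In shRNA cells KLK3 was at 8.02 in FCS and 8.37 in CSS. KLK2, another such gene, lay at 8.30 and 9.00 in control cells but at 7.07 and 6.59 in shRNA cells. TMPRSS2, also induced by androgens, was at 8.22 and 7.73 in control cells and 7.66 and 7.52 in shRNA cells. The summed linear signal of 6 measured fibroblast markers was at most 138 on the first 3 arrays and 198 on shRNA in CSS. Of these 6, 4 were at the floor on each of the first 3 arrays and 1, VIM, on shRNA in CSS. That of 5 measured leukocyte markers was 100 on the first 3 arrays and 117 on shRNA in CSS. Of these 5, 4, 5 and 4 were at the floor on the first 3 arrays in turn. CD3E and HLA-DRA were at the floor on all. On the first 3 arrays both sums thus stand mostly for the floor, not for a signal. COL1A2, DCN, PDGFRB, CD3D and CD14 were at the floor there, so on shRNA in CSS they could show no fall. The part of these signals in the results on that array was not tested.

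DNA is copied once per cell cycle, in S phase. In G1 the origin recognition complex, CDC6 and CDT1 load the MCM helicase onto DNA, and at the start of S phase CDC45 and the GINS complex turn it into the active helicase. Polymerases held by the clamp PCNA then extend both strands, while ribonucleotide reductase and thymidylate synthase supply the nucleotides. Transcription of many of these genes is under control of E2F factors and the retinoblastoma protein, and cyclin E drives the entry into S phase. A lower signal from fewer cells in S phase and one from less RNA per cell cannot be told apart in such bulk RNA, and the share of cells in S phase was not measured on these arrays.

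The letters of an E2F site near the start of the gene were a property that the choice of genes did not use. RefSeq promoters (GRCh38.p14) were given for 38 of the 44 genes, and the 250 bases before the start were searched on both strands for TTTGGCGC, TTTCCCGC, TTTGCCGC and TTTCGCGC. These letters were present in 11 of the 38 (28.9%), compared with 2.79% of all 27305 promoters of the table and 4.44% of those of genes kept on the arrays. The windows below show 6 of them, with the matching letters in capitals, to set genes that were lower in CSS in both kinds of cells beside others that were not. Each is written 5′ to 3′ on the strand of its gene, with up to 30 bases on either side.
MCM6, chr2:135876492-135876625, minus strand: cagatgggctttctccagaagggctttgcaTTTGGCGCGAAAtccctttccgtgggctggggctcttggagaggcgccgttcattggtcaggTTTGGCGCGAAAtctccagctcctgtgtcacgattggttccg
PCNA, chr20:5126644-5126711, minus strand: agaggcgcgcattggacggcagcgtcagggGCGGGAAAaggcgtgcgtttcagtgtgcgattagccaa
GINS2, chr16:85688955-85689015, minus strand: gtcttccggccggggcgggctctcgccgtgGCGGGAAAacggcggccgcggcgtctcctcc
RFC3, chr13:33818064-33818131, plus strand: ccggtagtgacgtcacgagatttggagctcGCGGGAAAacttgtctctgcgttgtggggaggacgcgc
LIG1, chr19:48170421-48170488, minus strand: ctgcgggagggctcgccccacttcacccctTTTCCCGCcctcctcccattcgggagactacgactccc
CDT1, chr16:88803724-88803788, plus strand: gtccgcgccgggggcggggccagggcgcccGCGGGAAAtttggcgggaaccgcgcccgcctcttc
In MCM6 each stretch of capitals holds 2 overlapping matches, 1 on each strand, and the other 5 windows hold 1 match each. MCM6, PCNA, GINS2 and RFC3 were lower in CSS in both kinds of cells. LIG1 was lower in control cells (-0.26, beside -0.28 for RFC3) and higher in shRNA cells (0.97), and CDT1 was near its starting level throughout. Of the 11 promoters with these letters, 5 were among the 12 of helicase and origin genes. CCAAT, which is not contained in the E2F letters, was found in 20 of 38 (52.6%) and in 33.0% of all promoters, and in 10 of the 12 helicase and origin promoters. TTTGAA, the core of the CHR element of mitotic genes, was found in 1 of 38 (2.63%), in 13.6% of all promoters and in 46.7% of the promoters of the mitosis list described below. The 11 genes with the E2F letters had a median difference of -0.36 for CSS against FCS in control cells, and the 27 without them of -0.39. A match is a description of letters and says nothing about binding.

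In control cells CSS, the study's androgen ablation, went with lower signals of the replication genes. KLK3 and KLK2 were higher and TMPRSS2 lower on this CSS array, and whether androgen signalling had a part in the lower signals was not tested. CSS gave lower signals than FCS for 42 of the 44 genes, where 46.7% of all genes were lower, and only CDT1 and UNG were not. The median difference was -0.38 (range -1.50 to 0.16) against 0.02 over all genes. A signal at least 1.5-fold lower was found for 15 of the 44 and for 2.23% of all genes. At 2-fold the count was 1 of 44, the gene being RRM2, and 0.138% of all genes. RRM2 was the lowest of 7605 genes with a signal above the floor on the 2 arrays, and 9 of the 44 were among the lowest 100. None was 1.5-fold higher. In shRNA cells the same comparison, which shares no array with the first, gave lower signals for 39 of 44 genes and for 47.8% of all genes. The median there was -0.83 (range -2.10 to 0.97) against 0.03 over all genes, with 29 genes at least 1.5-fold lower (16.0% of all genes) and 17 at least 2-fold lower (6.64% of all genes). Lower in CSS in both kinds of cells were 37 of 44 genes and 28.1% of all genes, the others being CDT1, POLD1, LIG1, CHAF1A, UNG, MSH6 and CCNE1.

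**Figure D1:**
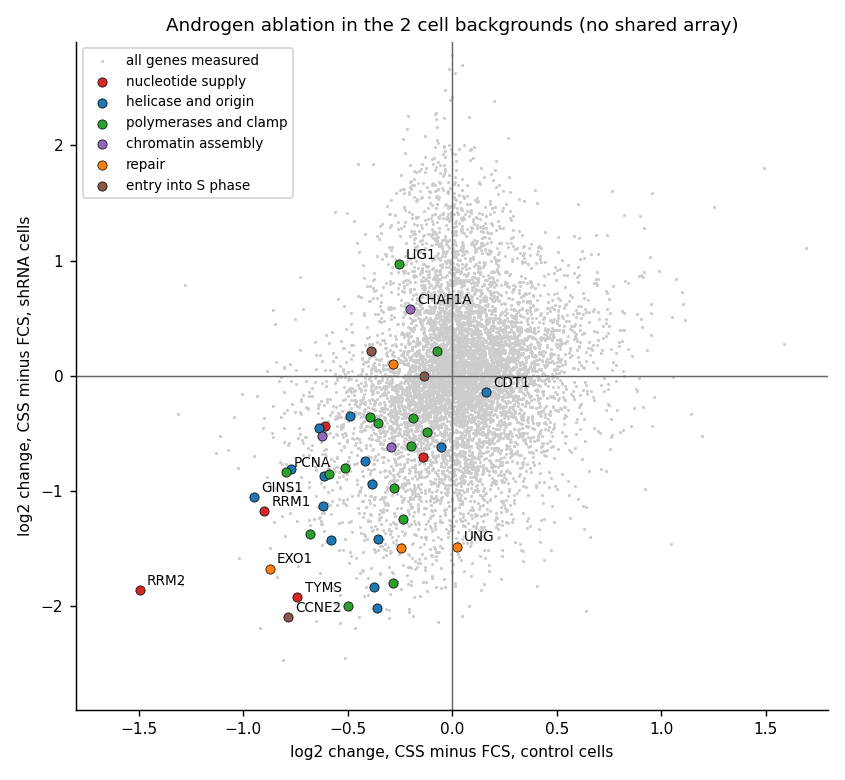
Log2 difference of CSS minus FCS in control cells (horizontal axis) and in shRNA cells (vertical axis), 1 array per condition. Coloured points are the 44 replication genes by role and grey points all other genes measured. RRM2 lies farthest to the left at -1.50 and -1.86, 37 of the 44 genes lie at the lower left, below 0 on both axes, and LIG1 lies above 0 in shRNA cells at 0.97.

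Nucleotide supply held RRM2, the gene lowest in CSS in control cells. RRM2, the small subunit of ribonucleotide reductase whose level peaks in S phase, had log2 signals of 9.48 in control cells in FCS, 7.99 in control cells in CSS, 9.56 in shRNA cells in FCS and 7.70 in shRNA cells in CSS. Both CSS arrays thus lay well below both FCS arrays, and the shRNA made little difference in either serum. RRM2 was 2.82-fold lower in CSS in control cells (difference -1.50, local spread 0.32) and 3.63-fold lower in shRNA cells (difference -1.86, local spread 0.34). Its second probe set gave -1.05 and -1.71. RRM1, the large subunit, was at 9.21, 8.32, 9.31 and 8.13 in the same order of arrays, and so was 1.86-fold lower in control cells and 2.26-fold lower in shRNA cells. The second probe set of RRM1 gave -1.29 in control cells and -0.74 in shRNA cells, so that there the larger fall was in control cells. TYMS, thymidylate synthase, which makes dTMP, was at 8.31 in control cells in FCS, 7.57 in CSS, 8.22 in shRNA cells in FCS and 6.29 in shRNA cells in CSS. Its lowest value was thus that of both treatments. Its dim second probe set was at the floor on the first 3 arrays and at 5.03 on shRNA in CSS, a bound of 0.70 in the opposite direction. With the other arrays at the floor, this probe set could show no fall. TK1, thymidine kinase of the salvage route, was at 7.34, 6.73, 7.12 and 6.68, the CSS arrays again being the lower ones. DUT, the dUTPase that keeps uracil out of DNA, differed from these: its signals were 9.34 in FCS and 9.20 in CSS in control cells, and 9.02 and 8.32 with the shRNA. DUT was thus 1.10-fold lower in CSS in control cells and 1.63-fold lower in shRNA cells, and lower with the shRNA in both sera. All 5 genes were lower in CSS in both kinds of cells, with medians of -0.74 in control cells and -1.18 in shRNA cells.

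Among the helicase and origin genes 13 of 14 were lower in CSS in control cells (median -0.45) and 14 of 14 in shRNA cells (median -0.90). GINS1, a subunit of the GINS complex that helps to activate the MCM helicase, was at 8.01 in control cells in FCS, 7.06 in CSS, 7.71 in shRNA cells in FCS and 6.66 in shRNA cells in CSS. It was the lowest of this group in control cells, at -0.95 (local spread 0.29), and it was at -1.06 in shRNA cells. CDC6, which loads the helicase at origins, had signals of 7.14, 6.38, 6.88 and 6.07, with differences of -0.77 and -0.81 in the 2 kinds of cells. The second probe set of CDC6 gave -0.68 and -1.29. CDC45, the third part of the active helicase, was at 5.82, 5.18, 5.77 and 5.32. MCM10, which binds the helicase as it starts, was at 5.53, 4.91, 5.65 and 4.52, and its difference of -1.13 in shRNA cells stood beside a local spread of 0.85. In all 4 of these genes both CSS arrays lay below both FCS arrays.

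The 6 subunits of the MCM2-7 helicase ring were lower in CSS in control cells by 0.37 to 0.61 on the log2 scale, with differences of -0.38 for MCM2, -0.42 for MCM3, -0.49 for MCM4, -0.37 for MCM5, -0.58 for MCM6 and -0.61 for MCM7. In shRNA cells they were spread more widely. MCM4 was at -0.35 there and MCM7 at -0.87, whereas MCM6 was at -1.42 (local spread 0.58). MCM6 had signals of 7.41, 6.83, 7.49 and 6.07. MCM5 was at 6.07 in control cells in FCS, 5.70 in CSS and 6.16 with the shRNA in FCS, and at the floor with the shRNA in CSS, a bound of 3.57-fold lower for CSS in shRNA cells. Its second probe set, at 4.81 to 5.23 on the last 3 arrays, gave -0.36 for that comparison. MCM4 had 4 probe sets, which gave -0.35, -1.75, -0.45 and a bound of -1.56 in shRNA cells. Probe sets of a single gene thus differed in shRNA cells about as widely as the subunits did.

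ORC1, the largest subunit of the origin recognition complex, was at 5.48 in control cells in FCS, 5.12 in CSS, 6.14 in shRNA cells in FCS and 4.72 in shRNA cells in CSS. ORC6, the smallest subunit, was at 7.09, 7.03, 7.81 and 7.19, so that it stood out on the array of shRNA in FCS and on no other. GINS2, the partner of GINS1, was only 1.28-fold lower in CSS in control cells (6.48 and 6.12) and 4.04-fold lower in shRNA cells (6.60 and 4.59). The last of these signals was close to the floor, and the local spread was 0.81. CDT1, the loading factor that is destroyed as S phase begins, was near the floor on all arrays, with signals of 5.08 to 5.26, and differed by 0.16 in control cells and -0.14 in shRNA cells.

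Polymerases, primase, clamp and ligase made up the group of 15, of which 15 were lower in CSS in control cells (median -0.28) and 13 in shRNA cells (median -0.80). PCNA, the sliding clamp, had signals of 9.77 in control cells in FCS, 8.98 in CSS, 9.67 in shRNA cells in FCS and 8.83 in shRNA cells in CSS. It was 1.74-fold lower in CSS in control cells and 1.79-fold lower in shRNA cells, so that its 2 differences of -0.80 and -0.84 were nearly alike. POLE2, the second subunit of the leading strand polymerase ε, was at 6.56, 5.88, 6.72 and 5.34. PRIM1, the catalytic subunit of primase, had signals of 7.73, 7.14, 7.93 and 7.08. FEN1, the nuclease that removes flaps on the lagging strand, was at 7.75, 7.23, 7.49 and 6.69, and its second probe set gave -0.85 in control cells and -0.41 in shRNA cells. These 4 genes had both CSS arrays below both FCS arrays.

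The clamp loader and the single-strand binding protein showed how far subunits of 1 complex differed. RFC3, a clamp loader subunit, was at 7.69 in control cells in FCS, 7.40 in CSS, 8.37 in shRNA cells in FCS and 6.58 in shRNA cells in CSS. It was 1.22-fold lower in CSS in control cells and 3.47-fold lower in shRNA cells, and its second probe set gave -0.68 and -1.95. RFC5, with signals of 6.51, 6.01, 6.47 and 4.47, was at -0.50 and -2.00, its last signal lying near the floor. RFC2 was at -0.39 and -0.36, and RFC4 at -0.20 and -0.61. RPA2, the middle subunit of the protein that coats single-stranded DNA, was at 7.00, 6.72, 7.74 and 6.76, with its highest signal on shRNA in FCS. RPA1, the large subunit, was at 9.80, 9.68, 10.16 and 9.67, and RPA3, the small one, was at -0.35 and -0.41.

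POLA1, the catalytic subunit of polymerase α, was dim, at 5.09 in control cells in FCS, 4.90 in CSS, 4.69 in shRNA cells in FCS and the floor in shRNA cells in CSS. POLD3, a subunit of the lagging strand polymerase δ, was at -0.24 in control cells and -1.24 in shRNA cells, where the local spread was 0.83. POLD1, the catalytic subunit of the same enzyme, was at -0.07 and 0.21. LIG1, the ligase that joins lagging strand fragments, had signals of 5.54, 5.29, 5.33 and 6.29, so that the array of both treatments was the highest of the 4. Its difference in shRNA cells was 0.97, beside a local spread of 0.92 for probe sets of that signal.

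Of the chromatin assembly genes, CHAF1B, the middle subunit of the assembly factor CAF-1, was at 6.24 in control cells in FCS, 5.61 in CSS, 6.14 in shRNA cells in FCS and 5.62 in shRNA cells in CSS. CHAF1A, its large subunit, went another way, with signals of 6.12, 5.92, 6.28 and 6.86, the highest being that of both treatments. Its 2 other probe sets gave 0.03 and 0.15 for CSS in shRNA cells where the brightest gave 0.58. SLBP, which binds histone mRNA, was at 8.16, 7.87, 8.25 and 7.63. The median of the 3 genes was -0.29 in control cells and -0.52 in shRNA cells.

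Among the repair genes EXO1, an exonuclease of mismatch repair, was at 7.01 in control cells in FCS, 6.14 in CSS, 6.93 in shRNA cells in FCS and 5.26 in shRNA cells in CSS. It was 1.83-fold lower in CSS in control cells (local spread 0.27) and 3.19-fold lower in shRNA cells (local spread 0.75). BRCA1, of homologous recombination, had signals of 6.28, 6.03, 6.23 and 4.73, so that it differed mainly on the array of both treatments. Its second probe set did not share that difference: it gave -0.53 for CSS in control cells and -0.43 in shRNA cells. UNG, the glycosylase that removes uracil, was at 5.82, 5.84 and 5.81 on the first 3 arrays and at the floor on the last, a bound of 2.80-fold lower. MSH6, of mismatch recognition, was at 7.85, 7.56, 7.63 and 7.74. The 4 genes thus did not share a pattern, and their medians were -0.26 in control cells and -1.49 in shRNA cells.

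Of the genes of entry into S phase, CCNE2, cyclin E2, was at 6.36 in control cells in FCS, 5.57 in CSS, 6.42 in shRNA cells in FCS and the floor in shRNA cells in CSS. It was 1.73-fold lower in CSS in control cells and at least 4.28-fold lower in shRNA cells. CCNE1, cyclin E1, which serves the same kinase, did not follow it: its signals were 5.76, 5.38, 6.23 and 6.45, with differences of -0.39 and 0.22. E2F1, the transcription factor, was at 6.49, 6.36, 6.18 and 6.17 and thus showed small differences in all comparisons, though its dim second probe set gave 0.62 for CSS in shRNA cells.

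**Figure D2:**
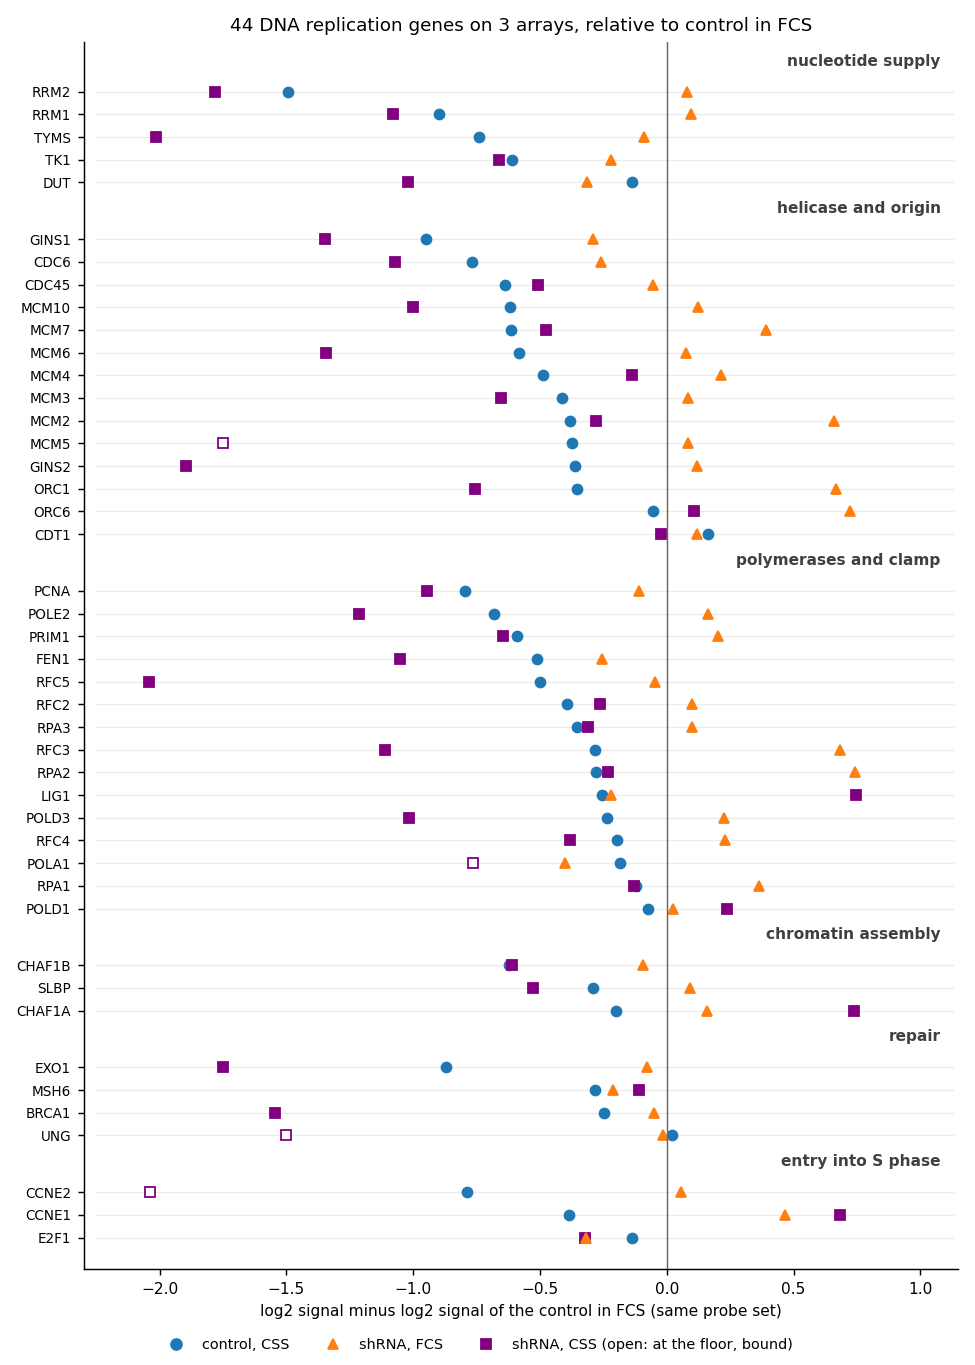
Log2 signal of each of the 44 genes on 3 arrays minus that on the control array in FCS (horizontal axis), for control in CSS (circles), shRNA in FCS (triangles) and shRNA in CSS (squares, open where the signal was at the floor), with genes grouped by role. The circles lie left of 0 for 42 genes, the triangles on both sides of 0, and the squares range from -2.04 to 0.75.

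The shRNA alone, in FCS, gave no common direction. Its signals were lower than those of the control for 17 of 44 genes (49.9% of all genes) and higher for 27, with a median of 0.08 against 0.00 over all genes. RPA2 (0.74), ORC6 (0.72), RFC3 (0.68), ORC1 (0.67) and MCM2 (0.66) were at least 1.5-fold higher, 5 of the 44 genes and 3.22% of all genes, beside local spreads of 0.22 to 0.34. MCM2, a subunit of the helicase ring, was at 8.05 in control cells in FCS, 7.67 in CSS, 8.71 in shRNA cells in FCS and 7.77 in shRNA cells in CSS. None of the 44 was 2-fold higher (0.802% of all genes) or 2-fold lower (0.401%). The lowest were POLA1 (-0.40), E2F1 (-0.32), DUT (-0.31) and GINS1 (-0.29).

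In CSS the shRNA went with lower signals for 30 of 44 genes, where 49.3% of all genes were lower, and the median was -0.21 against 0.01. With second probe sets the direction turned, with 8 of 18 lower (52.7% of those of all genes) and a median of 0.05. This comparison and the next involve the array that stood apart. At least 2-fold lower were 7 genes (6.75% of all genes): GINS2, RFC5, BRCA1 and TYMS, and as bounds MCM5, UNG and CCNE2. The second probe sets of BRCA1 (0.11) and MCM5 (0.061) had the opposite direction. So had that of TYMS (a bound of 0.70), which was at the floor in the control and could show no fall. The count was 12 with the values as deposited, 1 with a signal of at least 100 on 1 array and 0 with a floor of 100. At least 2-fold higher were LIG1 and CCNE1 (7.75% of all genes), and neither was with a common median (0.94 and 0.96) or as deposited (0.63 and 0.66). The shares of 7 and of 2 in 44 lie on either side of those over all genes. Higher with the shRNA in both FCS and CSS were 10 of 44 genes and 26.1% of all genes, whereas higher in FCS and lower in CSS were 17 of 44 and 23.4% of all genes. ORC1, RFC3, POLD3 and POLE2 were among the latter. For RFC3 the difference with the shRNA was 0.68 in FCS and -0.83 in CSS.

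With both treatments set against the control in FCS, 39 of 44 genes were lower and 47.4% of all genes, with a median of -0.71 against 0.03. At least 2-fold lower were 19 of 44 and 6.90% of all genes, and none was 2-fold higher (7.98% of all genes). RFC5 (-2.04), TYMS (-2.01), GINS2 (-1.90), RRM2 (-1.78), EXO1 (-1.75) and BRCA1 (-1.55) were the lowest of those above the floor, and CCNE2, MCM5 and UNG were lower by bounds of -2.04, -1.75 and -1.50. The genes that were not lower were LIG1, CHAF1A, CCNE1, POLD1 and ORC6. These differences share the control array in FCS with those of either treatment alone. With the brightest probe sets the difference for CSS was more negative in shRNA cells than in control cells for 33 of 44 genes and for 54.5% of all genes. The median gap was -0.33 against -0.05 over all genes. Second probe sets showed little of this, with medians of -0.38 in control cells (17 genes) and -0.42 in shRNA cells (18 genes). For the brightest probe sets of the same genes the medians were -0.39 and -0.84. The gap was widest for GINS2 (-1.65), and it was small for PCNA (-0.04), CDC6 (-0.04) and GINS1 (-0.11). For CDC6 this held for the brightest probe set only, since the second gave -0.68 in control cells and -1.29 in shRNA cells. GINS2, RFC5 and BRCA1 had signals of 4.59, 4.47 and 4.73 with both treatments, and MCM5, UNG and CCNE2 were at the floor there, so that the widest gaps belonged mostly to genes near the floor. RFC3, with a gap of -1.51 and a signal of 6.58, and TYMS, with a gap of -1.18 and a signal of 6.29, were exceptions.

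Across the 4 arrays, 30 of the genes had their lowest signal with both treatments and 14 in the control in CSS, and none in FCS. The highest signal was on shRNA in FCS for 23 and on control in FCS for 15. These counts were not made over all genes, so they do not set the 44 apart. Over all genes the robust SD of the differences for CSS was 0.56 in shRNA cells and 0.23 in control cells. Both CSS arrays lay below both FCS arrays for 33 of 44 genes and for 18.2% of 7949 genes above the floor on at least 2 arrays. DUT, CDT1, ORC6, POLA1, POLD1, LIG1, CHAF1A, UNG, MSH6, CCNE1 and E2F1 were the exceptions.

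A test was possible only for the main effect of each factor over all 4 arrays, with limma in an additive model that left 1 residual degree of freedom. In it 10 of the 44 genes fell with CSS at an adjusted p of 0.05, as did 1.67% of all genes, and none of the 44 rose. RRM2 fell by 1.68 on the log2 scale (SE 0.14, limma adjusted p = 2.87e-28), RRM1 by 1.04 (adjusted p = 1.3e-10) and PCNA by 0.82 (adjusted p = 2.2e-09). TYMS fell by 1.33 (adjusted p = 9.43e-07), MCM7 by 0.74 (adjusted p = 0.000348) and RFC3 by 1.04 (adjusted p = 0.000877). GINS1, MCM2, DUT and MCM6 had limma adjusted p values of 0.00467, 0.0147, 0.0392 and 0.0492. With the shRNA 2 of the 44 fell, DUT by 0.60 (limma adjusted p = 0.000253) and TYMS by 0.68 (adjusted p = 0.0486), as did 2.68% of all genes, and none of the 44 rose. In this model every variance came from the trend on mean signal, since the prior degrees of freedom were infinite. A gene whose difference for CSS depended on the shRNA was thus given no larger variance for it. RFC3 was 1.22-fold lower in CSS in control cells and 3.47-fold lower in shRNA cells. TYMS was 1.06-fold lower with the shRNA in FCS and 2.42-fold lower in CSS. For CSS, DUT was at -0.14 in control cells (local spread 0.33) and -0.71 in shRNA cells. MCM2 (-0.38 and -0.94), MCM6 (-0.58 and -1.42) and TYMS (-0.74 and -1.92) also had the larger difference for CSS in shRNA cells. With the shRNA, DUT differed by -0.31 in FCS and -0.88 in CSS. The calls of RFC3 and DUT for CSS and of TYMS and DUT for the shRNA thus rest mostly on differences with the array of shRNA in CSS. That array stood apart, and it enters every effect of this model. Without the trend no gene of the arrays passed. There 15 of the 44 had an unadjusted limma p under 0.05 for CSS, beside 307 of 7949 genes in all. For the shRNA the counts were 1 of the 44 and 382 of 7949.

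More than 1 probe set was measured for 18 of the 44 genes. For CSS in control cells the second brightest probe set was lower for 17 of 17 genes with a value, with a median of -0.38 beside -0.39 for the brightest. Over all genes 51.3% of second probe sets were lower there, with a median of -0.01. Of all 65 probe sets of the 44 genes with a value there, 62 were lower. For CSS in shRNA cells 15 of 18 second probe sets were lower, with a median of -0.42 beside -0.84 for the brightest. Over all genes 54.8% of second probe sets were lower there (median -0.06). E2F1 and MSH6 had the opposite direction. So had TYMS, whose second probe set was at the floor in FCS and could show no fall. For the shRNA in CSS the probe sets of 9 of 18 genes had opposite directions, a count not made over all genes. Among these genes the sizes on the array of both treatments thus depended on the probe set more than those in control cells did. Whether this holds for genes at large was not tested.

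**Figure D3:**
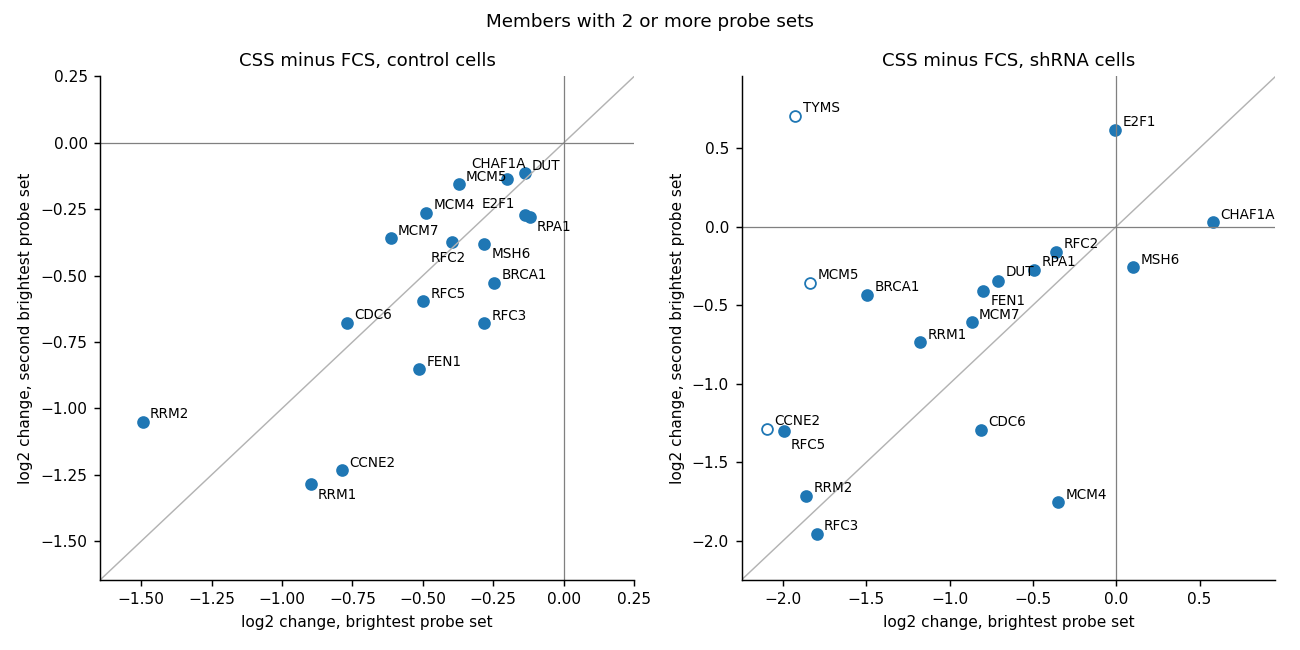
Log2 difference of CSS minus FCS for the brightest (horizontal axis) and the second brightest probe set (vertical axis) of genes with 2 or more, in control cells (left) and shRNA cells (right), with open points for bounds. On the left all 17 points lie below 0 on both axes. On the right TYMS lies at -1.92 and 0.70, the latter from a probe set at the floor in FCS that could show no fall.

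Other genes of the same processes were taken from lists that the 44 genes are not part of. Among 26 measured replisome and origin genes 17 were lower in CSS in control cells (median -0.11) and 23 in shRNA cells (median -0.67), 9 of them at least 2-fold. RNASEH2A, a subunit of the RNase that removes ribonucleotides from DNA, was the lowest of these in control cells, with signals of 7.55 in control cells in FCS, 6.81 in CSS, 7.30 in shRNA cells in FCS and 6.85 in shRNA cells in CSS. WDHD1, which couples the helicase to polymerase α, was at 5.07, 4.35, 5.20 and the floor. ORC4, a subunit of the origin recognition complex, was at 6.91, 6.99, 7.64 and 7.13 and thus highest, as ORC6 was, on shRNA in FCS. Of 13 other genes of nucleotide supply 8 were lower in CSS in control cells (median -0.04), with DCK, a salvage kinase, at -0.54, NME1, a nucleoside diphosphate kinase, at -0.50, and SHMT2, of one-carbon metabolism, at 0.51. The 5 named nucleotide genes, with a median of -0.74, were thus lower than this wider list, a difference that was not tested.

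Of 17 measured genes of chromatin replication and repair outside the 44, 15 were lower in CSS in control cells (median -0.29) and 12 in shRNA cells (median -0.35). RBBP7, a histone chaperone, was at -0.74, TOP2A, topoisomerase IIα, at -0.67 and CHEK1, the checkpoint kinase, at -0.57 in control cells. Regulators of G1 and S phase were mixed, with 16 of 25 lower in control cells (median -0.20) and 17 of 27 in shRNA cells (median -0.12). CCNA2, cyclin A2, was at 6.75 in control cells in FCS, 6.13 in CSS, 7.67 in shRNA cells in FCS and 6.48 in shRNA cells in CSS, the highest value again being that of shRNA in FCS. RBL2, a pocket protein of resting cells, was at 6.05, 6.36, 5.41 and 5.55, which is lower on both shRNA arrays. E2F5 was at 5.58, 5.63, 6.22 and 4.83.

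A list of mitosis genes was set beside the replication genes because both follow the cell cycle. In CSS 35 of 35 measured mitosis genes were lower in control cells (median -0.33), close to the 42 of 44 and the median of -0.38 of the replication genes. With the shRNA in FCS 35 of 35 mitosis genes were higher (median 0.68), where the replication genes were divided (median 0.08). TPX2, a spindle assembly factor, was at 8.37 in control cells in FCS, 8.35 in CSS, 9.40 in shRNA cells in FCS and 9.00 in shRNA cells in CSS. KIF20A, a kinesin of cytokinesis, had signals of 7.36, 6.85, 8.37 and 7.85, and BUB1, a checkpoint kinase, of 6.86, 6.28, 7.81 and 6.61. In CSS the shRNA went with higher signals for 27 of 35 mitosis genes (median 0.47), while 30 of the 44 replication genes were lower (median -0.21, or 0.05 over 18 second probe sets). The gap between the lists has no test here.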

How the data were processed

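Total RNA of LAPC4 cells in 4 conditions, 1 array each, was measured on Affymetrix U133 arrays. According to the methods, the authors took MAS5 signals (also named in the labels), selected probe sets on intensity and detection call, log2 transformed them and normalized by quantiles. The deposited table holds log2 values for all 22277 probe sets, without calls and with distributions that differ between arrays; whether they are MAS5 signals unchanged was not tested. The 62 Affymetrix control probe sets were left out, the 15643 probe sets that reached a signal of 20 on any array were quantile normalized, and lower signals were set to 20. The platform annotation named a single gene for 19070 probe sets, more than 1 gene for 1043 and no gene for 2164, and only the first kind was used, with symbols updated through RefSeq (GRCh38.p14). The probe set with the highest mean over the 4 arrays stood for its gene. The local spread is 1.4826 times the median absolute deviation over 1000 probe sets. Main effects of serum and shRNA were fitted with limma 3.58.1 under R 4.3.3, with a trend on mean signal, and any interaction counts as error. Benjamini-Hochberg adjustment was made over 7949 genes above the floor on at least 2 arrays, with a threshold of 0.05. The fit was also run on simulated data with independent noise and no interaction. Because the data here differ from that setting, the simulation cannot vouch for the p-values. Python 3.11.15 with numpy 2.4.6, pandas 2.3.3 and matplotlib 3.10.9 served for all else. Promoters were those of the first start listed per gene.

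The 44 genes and the other lists were chosen with earlier results of these data known. Values on all arrays are given for the up to 4 genes of each role with the largest differences for CSS in control cells and up to 3 for the shRNA in FCS, for genes at the floor on 1 array, and for further members added after their values were seen. From each other list up to 3 genes are named by the same rule. Alternatives were the deposited values, a common median, other floors and filters, other probe sets, other fold thresholds, limma without the trend and, added after seeing the data, quantile normalization without the array of both treatments. Nothing in the sources says that any 2 arrays are replicates.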

Additional observations from a re-analysis of the deposited data

Results flagged for a closer look

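LIG1, the replicative DNA ligase, was higher in CSS than in FCS in shRNA cells by 0.97 on the log2 scale (local spread 0.92), whereas in control cells its difference was -0.26 (local spread 0.25). The difference between the 2 kinds of cells was not tested, since each condition has 1 array. LIG1 had a single probe set, with signals of 5.29 to 6.29.

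RFC3, a clamp loader subunit, was lower with the shRNA in CSS, with a difference of -0.83 (local spread 0.45), and higher with the shRNA in FCS, by 0.68 (local spread 0.34). This difference between sera was not tested either. The second probe set of RFC3 gave -0.74 and 0.53. Both results rest on the array of shRNA in CSS, which stood apart from the others.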

How the results depend on the processing

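No paired analysis was possible because the labels give no replicate numbers and each condition has 1 array; leaving out an array would leave the additive model without residual degrees of freedom. The medians of the 44 genes kept their direction under every alternative run except that for the shRNA in CSS, which was -0.21 and became 0.05 with the second probe sets (18 genes). With the values as deposited the median of all genes shifted by -0.19 for CSS in shRNA cells, -0.20 for the shRNA in CSS and -0.16 with both treatments; relative to it the 44 genes were at -1.06, -0.39 and -0.92, compared with -0.85, -0.22 and -0.74 after quantile normalization. Quantile normalization without the array of both treatments was run for CSS in control cells and for the shRNA in FCS. None of the 88 differences of the 44 genes moved by as much as the robust SD over all genes, 0.23 and 0.24.

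Counts of genes past 2-fold depended on the settings more than directions did. For CSS in shRNA cells the 17 lower genes became 29 as deposited, 5 with a floor of 100, 7 with a signal of at least 100, 6 with second probe sets, 29 at 1.5-fold and 8 at 3-fold. For the shRNA in CSS the 7 lower genes became 12 as deposited, 0 with a floor of 100, 1 with a signal of at least 100, 3 with the mean over probe sets, 1 with second probe sets, 12 at 1.5-fold and 0 at 3-fold. The 2 higher genes of that comparison became 0 as deposited, with a common median, with a floor of 100, with a signal of at least 100, with second probe sets and at 3-fold. With both treatments the 19 lower genes became 7 with a floor of 100, 8 with a signal of at least 100, 6 with second probe sets and 7 at 3-fold, and 3 were higher at 1.5-fold. For CSS in control cells the 1 lower gene became 3 with the mean over probe sets, 3 with second probe sets, 15 at 1.5-fold and 0 at 3-fold. At 1.5-fold 1 gene was higher for CSS in shRNA cells and 5 for the shRNA in FCS. The 10 genes that limma called for CSS became 0 without the trend and 3 as deposited. The 2 called for the shRNA became 0 without the trend, as deposited and with the mean over probe sets, and 1 with a common median or without a floor. The second probe sets turned MCM5 to 0.061 and BRCA1 to 0.11 for the shRNA in CSS. That of TYMS gave a bound of 0.70 for CSS in shRNA cells, for the shRNA in CSS and with both treatments. It was at the floor on the other 3 arrays, so it could show no fall there. The causes were not tested. Floors and minimum signals leave fewer genes: 27 of the 44 reached a signal of 100, and of these 27 were lower in CSS in control cells (median -0.49) and 26 in shRNA cells (median -0.79).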
